A study of Mus musculus with 2 samples.

Results

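The 10 genes described here encode interferon-inducible GTPases of the mouse: 7 guanylate-binding proteins (Gbp2, Gbp3, Gbp4, Gbp6, Gbp7, Gbp8 and Gbp9) and 3 immunity-related GTPases of the M class (Irgm1, Irgm2 and Igtp). They were chosen by symbol, with earlier results of these data known, from a read count table of 35275 genes. All 10 were found. The table holds 2 libraries of TEa cells sorted from spleen, 1 per group, and the study asked how these cells respond to abundant or moderate amounts of the I-E alpha antigen. TEa cells are C57BL/6 CD4 T cells with a transgenic receptor for an I-E alpha peptide. The effector library came from TEa cells transferred into wild-type C57BL/6 mice that received a BALB/c skin transplant. The exhausted library came from TEa cells transferred into CB6F1 mice, the offspring of a BALB/c and C57BL/6 cross, which carry the antigen in their own tissues. Recipient strain, transplant and amount of antigen differ together between the groups and cannot be told apart. The number of mice behind a library, their age and the time after transfer are not stated in the labels used here.

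Guanylate-binding proteins (GBPs) are large dynamin-like GTPases that assemble on the membranes of pathogen-containing vacuoles and on bacteria. Immunity-related GTPases (IRGs) are smaller; their M class sits on the cell's own membranes and keeps the other IRGs inactive there. Both families are induced by interferon gamma. The cytokine binds the receptor made of IFNGR1 and IFNGR2, the kinases JAK1 and JAK2 pass the signal on, and factors such as IRF1 bind promoters of these genes. T cells express them too, and Irgm1 is known to protect CD4 T cells from death under interferon gamma.

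Total counts were 7844445 in the effector and 8508129 in the exhausted library. A gene counted as measured with at least 50 reads over both libraries, which held for 9999 genes and for all 10 GTPase genes. Fold values are ratios of counts scaled by library size, and the 95% interval beside each covers counting error only. A gene was called higher or lower in the exhausted library at a ratio of at least 2-fold whose interval excluded equality. With 1 library per group no value has a replicate check, no p-value was computed, and every difference below is one between these 2 libraries. Libraries were made from bulk RNA, so fewer cells expressing a gene and less RNA per cell cannot be told apart.

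All 10 GTPase genes had a lower scaled count in the exhausted library, by between 1.37-fold (Gbp8) and 6.28-fold (Gbp3). Of the 10, 5 were called lower, 0 higher and 5 neither, where 7.09% of all measured genes were called lower and 6.62% higher. The interval lay wholly below equality for 10 of 10 members and for 31.9% of measured genes. The median log2 ratio of the 10 was -1.01, against -0.01 over all measured genes. At a threshold of 1.5-fold 9 of the 10 were lower (13.6% of measured genes), and at 4-fold 1 was (2.41%). Their reads summed to 13338 in the effector and 7140 in the exhausted library, 2.03-fold lower (1.97 to 2.09).

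**Figure D1:**
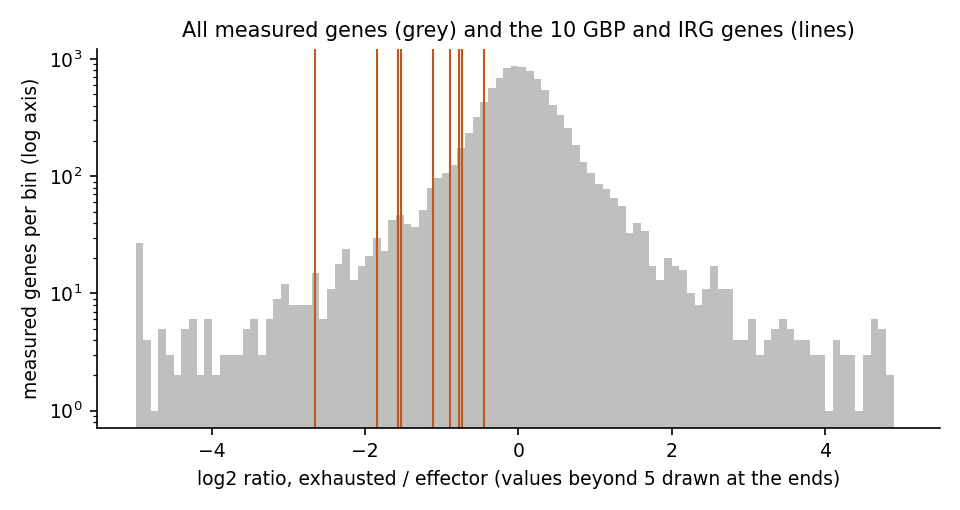
Histogram of the log2 ratio of exhausted to effector for the 9999 measured genes (grey, log count axis), with a line for each of the 10 GBP and IRG genes. All 10 lines lie left of 0, between -2.65 (Gbp3) and -0.45 (Gbp8).

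Of the GBP genes on chromosome 3, Gbp2 and Gbp3 were called lower and Gbp7 was not. Gbp3 (ENSMUSG00000028268, mm10, chromosome 3, 142560052 to 142573209) had 272 reads in the effector and 47 in the exhausted library, 6.28-fold lower (4.59 to 8.75). Only 1.44% of measured genes had a smaller ratio. Gbp2 (ENSMUSG00000028270, chromosome 3, 142620602 to 142638008), whose protein is anchored to membranes by a lipid tail, had 705 and 256 reads. That was 2.99-fold lower (2.59 to 3.46). Gbp7 (ENSMUSG00000040253, chromosome 3, 142530338 to 142550083), linked to assembly of the phagocyte oxidase, had 1085 and 688 reads and did not reach the threshold, at 1.71-fold lower (1.55 to 1.89). The 3 neighbours thus had unequal ratios. The fold of Gbp3 was 3.67 times that of Gbp7 (2.64 to 5.19) and 2.10 times that of Gbp2 (1.48 to 3.02), counting error only. Summed over the 3 genes, 2062 reads stood against 991, 2.26-fold lower (2.09 to 2.44).

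On chromosome 5, Gbp6 and Gbp9 were called lower and Gbp4 and Gbp8 were not. The row named Gbp6 (ENSMUSG00000079362, chromosome 5, 105215699 to 105293699) had 1178 reads in the effector and 356 in the exhausted library, 3.59-fold lower (3.19 to 4.05). In the GENCODE M21 annotation this identifier is called Gm43302, and its exons share 1726 bases with Gbp6 and 1792 with Gbp10, so the row cannot be assigned to Gbp6 alone. Gbp9 (ENSMUSG00000029298, chromosome 5, 105078394 to 105139539) had 2177 and 1087 reads, 2.17-fold lower (2.02 to 2.34). The 2 other genes differed less. Gbp4 (ENSMUSG00000079363, chromosome 5, 105115767 to 105139586) had the most reads of the 10, with 3173 and 2059, a 1.67-fold lower count (1.58 to 1.77). For Gbp8 (ENSMUSG00000034438, chromosome 5, 105014153 to 105139540) 930 reads stood against 739, 1.37-fold lower (1.24 to 1.51). Its ratio was nearest to equality among the 10, and 18.7% of measured genes had a smaller one.

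Gbp4, Gbp8 and Gbp9 run on the same strand, and the upstream ends of their deposited models lie at 105139586, 105139540 and 105139539. In M21 Gbp4 shares 61 exonic bases with Gbp8 and 60 with Gbp9. Of all 50-base words in M21 transcripts of each gene, some also occur in transcripts of another gene. Such words made up 18.1% for Gbp8, 8.05% for Gbp9 and 7.78% for Gbp4. For the row named Gbp6 they made up 100% (4261 of 4261 words), most of them shared with the M21 genes Gbp6 and Gbp10. The ratio, level and share of that row therefore rest on sequence that is not its own. Elsewhere they made up 12.7% for Gbp7, 11.8% for Igtp, 7.83% for Irgm2, 3.75% for Gbp3, 2.03% for Gbp2 and 0.379% for Irgm1. By these words Gbp8 shared most with Gbp11 (7.4%), Gbp10 (6.7%) and Gbp9 (6.6%). Gbp4 shared most with Gbp11 (3.2%) and Gbp6 (3.1%), and Gbp9 with Gbp8 (4.4%). How shared reads were counted is not given. A sum over Gbp4, Gbp8 and Gbp9 does not change when reads pass between them. It can change where reads shared with other genes were moved, left out or counted more than once. That sum was 6280 against 3885 reads, 1.75-fold lower (1.68 to 1.83), and did not reach the threshold. With Gbp6 added, the chromosome 5 genes had 7458 against 4241 reads, 1.91-fold lower (1.84 to 1.98).

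Among the M class IRG genes on chromosome 11, Igtp was called lower, and Irgm1 and Irgm2 were not. Igtp (ENSMUSG00000078853, chromosome 11, 58199556 to 58207591), also known as Irgm3 and found at the endoplasmic reticulum and lipid droplets, had 1688 reads in the effector and 632 in the exhausted library. Its count was 2.90-fold lower (2.64 to 3.18). Irgm1 (ENSMUSG00000046879, chromosome 11, 48861968 to 48871683), a regulator of autophagy and of lysosomes, had 1672 and 977 reads, 1.86-fold lower (1.71 to 2.01). The interval of Irgm1 includes the 2-fold threshold. Irgm2 (ENSMUSG00000069874, chromosome 11, 58199618 to 58222779), a Golgi-associated member, had 458 and 299 reads, 1.66-fold lower (1.43 to 1.93). The folds of Irgm1 and Irgm2 were not separated by counting error (ratio of folds 1.12, 0.943 to 1.32), whereas the fold of Igtp was 1.74 times that of Irgm2 (1.46 to 2.08). Deposited models of Igtp and Irgm2 overlap, and in M21 they share 162 exonic bases. Their sum of 2146 against 931 reads was 2.50-fold lower (2.31 to 2.70). All 3 IRG members together had 3818 against 1908 reads, 2.17-fold lower (2.05 to 2.29).

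**Figure D2:**
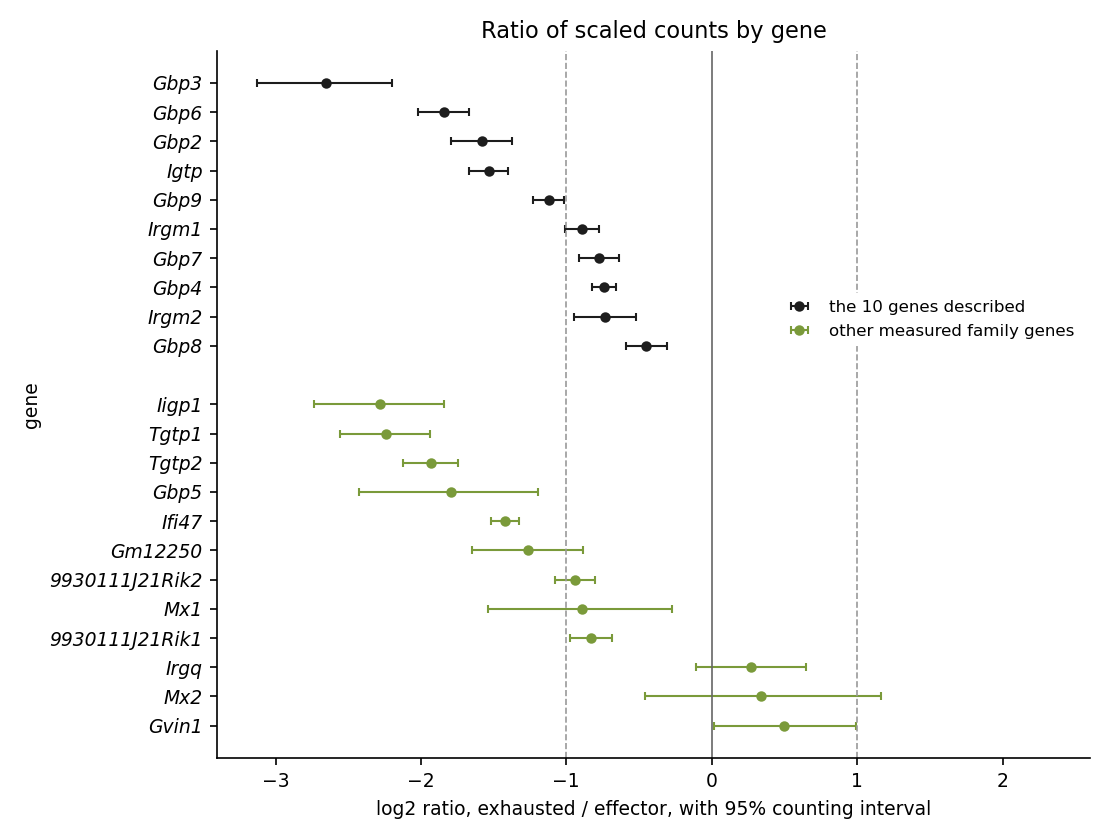
Log2 ratio of exhausted to effector with the 95% counting interval, for the 10 genes (black) and the 12 other measured genes of the families (green). Dashed lines mark a 2-fold difference. The 10 genes range from -2.65 to -0.45, and the other family genes from -2.28 (Iigp1) to 0.50 (Gvin1).

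Levels of different genes were compared in TPM, that is counts divided by the deposited gene length and brought to the same total in each library. In the effector library Igtp had the highest level at 234 TPM, followed by Gbp4 (196), Gbp9 (168), Irgm1 (122) and Gbp8 (106). Lower levels were found for Gbp2 (78.4), Gbp6 (76.4), Gbp7 (54.7), Irgm2 (36.9) and Gbp3 (28.4). Of the 9 neighbouring pairs in this order, Gbp2 and Gbp6 had overlapping 95% Poisson intervals. In the exhausted library Gbp4 came first at 126 TPM. Igtp (87.1), Gbp8 (83.7) and Gbp9 (83.4) followed with overlapping intervals, then Irgm1 (71.0), Gbp7 (34.6), Gbp2 (28.4), Irgm2 (24.0) and Gbp6 (23.0). Gbp3 was last at 4.88 TPM (3.59 to 6.49). Intervals of neighbours also overlapped between Gbp7 and Gbp2, Gbp2 and Irgm2, and Irgm2 and Gbp6. Igtp stood above Gbp4 in the effector library and below it in the exhausted library, with separate intervals in each. That switch depends on the gene length used, which the intervals do not cover. Gbp4 has 4538 bases in the deposited table but 7494 exonic bases in M21, and Igtp has 2022 in both. Gbp9 (3633 deposited, 5173 in M21) and Gbp8 (2459 and 3443) are longer in M21 too. Their places in the order, and their overlap with Igtp in the exhausted library, thus also depend on the length used. Per base of the M21 length, Gbp4 would stand below Igtp in both libraries.

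**Figure D3:**
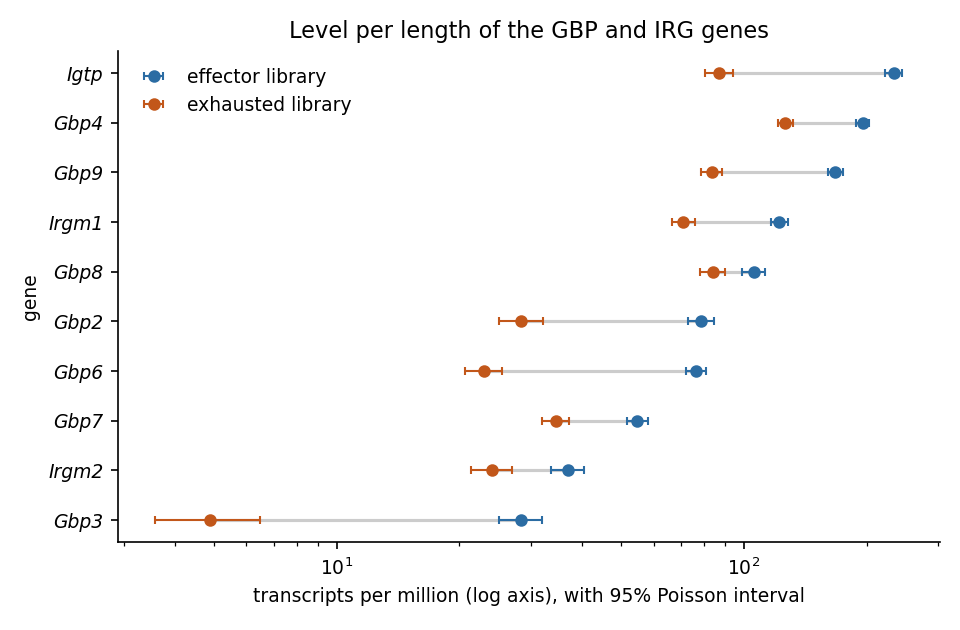
Level of each of the 10 genes in TPM (log axis) in the effector (blue) and exhausted (orange) library, with 95% Poisson intervals, ordered by effector level. Every orange point lies left of its blue point. Gbp3 has the widest gap, from 28.4 to 4.88 TPM.

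The make-up of the family differed between the libraries as well. Each gene's share of the 13338 and 7140 family reads does not depend on the scaling between libraries. Gbp3 made up 2.04% of these reads in the effector library (exact Clopper-Pearson 95% interval 1.81 to 2.29%) and 0.658% in the exhausted library (0.484 to 0.874%). Shares of Gbp6 (8.83 and 4.99%), Gbp2 (5.29 and 3.59%) and Igtp (12.7 and 8.85%) were also smaller in the exhausted library, with intervals that did not overlap. Gbp4 took a larger share there, 28.8% (27.8 to 29.9%) against 23.8% (23.1 to 24.5%). Gbp8 (6.97 and 10.4%) and Gbp7 (8.13 and 9.64%) did so too, with separate intervals. For Gbp9, Irgm1 and Irgm2 the intervals of both libraries overlapped. A larger share here is relative to the other 9 genes, since Gbp4, Gbp7 and Gbp8 had lower scaled counts in the exhausted library too. Per kilobase of gene length the shares were of another size but differed in the same directions. Igtp then took 21.2 and 15.4% in place of 12.7 and 8.85%, and Gbp7 4.98 and 6.10%.

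**Figure D4:**
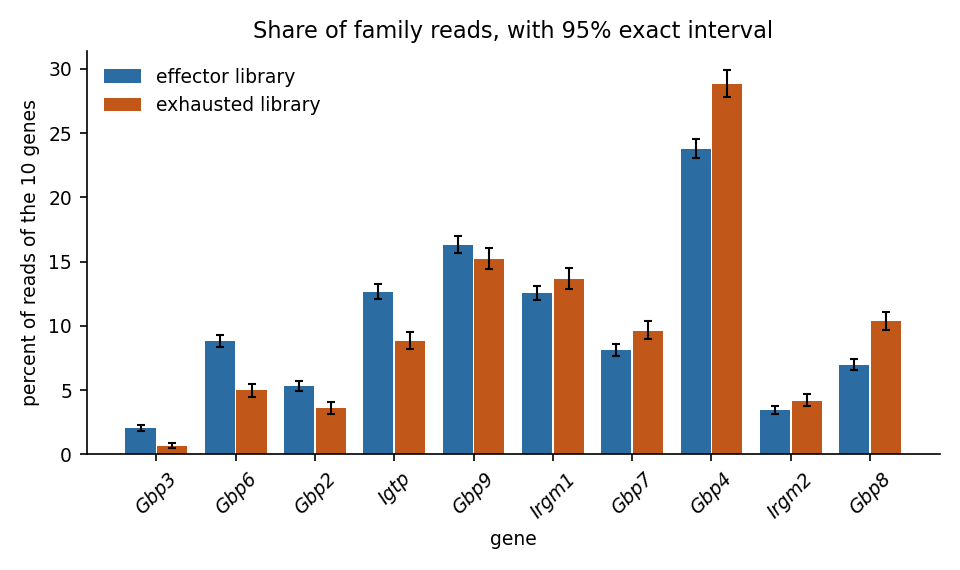
Percent of the reads of the 10 genes that each gene took in the effector (blue) and exhausted (orange) library, with exact 95% intervals. Gbp3, Gbp6, Gbp2 and Igtp have the smaller bar in the exhausted library, and Gbp4, Gbp7 and Gbp8 the larger.

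Promoter sequence was examined because these genes had lower counts together and belong to a family known to be switched on by interferon gamma. RefSeq windows (GRCm38.p6) from 250 bases before to 50 bases after the start site were at hand for 6 of the 10 genes; Gbp4, Gbp6, Gbp8 and Gbp9 had no window. Each was searched on both strands for GAAANNGAAA, the core of the interferon-stimulated response element (ISRE), and for TTCNNNGAA, the core of the gamma-activated site (GAS). Stretches below are written 5′ to 3′ on the gene's strand, with matches to either motif in capitals. They are shown because they hold every match found upstream of the start sites of these 6 genes.
Gbp2, chr3:142620592-142620625, plus strand: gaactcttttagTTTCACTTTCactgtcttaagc
Gbp3, chr3:142559987-142560026, plus strand: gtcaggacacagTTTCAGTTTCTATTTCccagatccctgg
Gbp7, chr3:142530218-142530304, plus strand: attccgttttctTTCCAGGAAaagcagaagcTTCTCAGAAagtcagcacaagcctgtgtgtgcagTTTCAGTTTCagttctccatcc
Igtp, chr11:58199499-58199543, plus strand: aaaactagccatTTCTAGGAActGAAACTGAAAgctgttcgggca
Irgm2, chr11:58214890-58214934, plus strand: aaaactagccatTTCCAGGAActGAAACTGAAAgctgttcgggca
Irgm1, chr11:48871423-48871462, minus strand: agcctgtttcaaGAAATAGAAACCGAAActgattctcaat

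All 6 genes had at least 1 match to the ISRE core in a window (6 of 7 windows, since Gbp3 has a further start site), compared with 3.44% of the 32851 windows of the whole table. In Gbp3 and Irgm1 a pair of overlapping matches forms 1 longer run of capitals. Gbp2, Gbp3 and Gbp7 hold the motif on the strand opposite to the gene, where the printed letters read TTTCNNTTTC, and the IRG genes hold it on their own strand. The GAS core was matched in Gbp7, Igtp and Irgm2, 3 of 7 windows against 8.30% of all windows, and both motifs together in the same 3 against 0.454%. Among 11 windows of other family genes, 7 matched the ISRE core, 5 the GAS core and 5 both. In Igtp and Irgm2 the ISRE match begins 11 bases after the first base of the GAS match. The same spacing of 11 was found in Tgtp1, Tgtp2 and Gm12185, other IRG genes of chromosome 11. Of these Gm12185 had 22 against 17 reads and was not measured. Gm12250 has both motifs in another arrangement, with the GAS match beginning 61 bases before the start site and ISRE matches on the opposite strand 91 and 46 bases before it. The stretches of Igtp and Irgm2 differ at 1 of 45 bases, and their aligned windows were identical at 244 of 265 positions (92.1%). Of this pair Igtp was 2.90-fold and Irgm2 1.66-fold lower. The Irgm2 window lies inside the deposited Irgm2 model, which begins at 58199618, near the beginning of Igtp at 58199556. The Irgm2 count is therefore not tied to this window alone. Gbp3, with matches to the ISRE core alone, was 6.28-fold lower, and Gbp7, with both motifs, 1.71-fold lower. A match is a description of the letters, and neither binding nor a relation between motifs and ratios was tested.

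Other genes of the families were lower in part. Among 12 measured genes 6 were called lower and 0 higher, where 7.09% of all measured genes were called lower and 6.62% higher. The median log2 ratio of the 12 was -1.10. Of the 6 lower genes 5 belong to the effector class of IRGs, which attack vacuole membranes. Genes that were not called were not sorted by class. Iigp1 (Irga6) had 237 against 53 reads, 4.85-fold lower (3.59 to 6.66). Tgtp1 and Tgtp2 (Irgb6 copies, near-identical, so that their reads may be exchanged) had 466 against 107 and 1053 against 299 reads, 4.73-fold (3.82 to 5.89) and 3.82-fold lower (3.36 to 4.36). Ifi47 (Irgd) had 3001 against 1217 reads, 2.68-fold lower (2.50 to 2.86), and Gm12250 (Irgb10, typed as a pseudogene in the deposited table) 190 against 86, 2.40-fold lower (1.85 to 3.13). The row named Gbp5 had 99 against 31 reads, 3.46-fold lower (2.29 to 5.37). Its identifier belongs to Gbp2b in M21 and its deposited span (142496934 to 142619179) runs from within the M21 locus of Gbp5 to the end of Gbp2b, across Gbp7 and Gbp3, so it was assigned to neither. Gbp11 had 27 against 0 reads and was not measured.

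The other 6 measured family genes did not reach the threshold. 9930111J21Rik1 had 1017 against 621 reads, 1.78-fold lower (1.61 to 1.97), and 9930111J21Rik2 had 1246 against 705, 1.92-fold lower (1.75 to 2.11). Mx1, the antiviral dynamin-like GTPase gene, had 60 against 35, and Mx2 had 24 against 33. The very large GTPase gene Gvin1 had 60 against 92, and Irgq, a divergent IRG-like gene, 104 against 136.

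Upstream of these GTPases, the cytokine gene was lower, while both receptor genes, both kinase genes and Irf1 were within 2-fold. Ifng had 203 reads in the effector and 24 in the exhausted library, 9.18-fold lower (6.00 to 14.7). Receptor chains Ifngr1 (1402 against 1213 reads, log2 ratio -0.33) and Ifngr2 (275 against 191, -0.64) did not reach the threshold. Nor did the kinase genes Jak1 (15984 against 15064, -0.20) and Jak2 (2421 against 3078, 0.23). Irf1, the gene of a transcription factor of this response, had 2517 against 2450 reads (-0.16). Of the feedback inhibitors, Socs1 had 185 against 187 reads (-0.10) and Socs3, which acts mainly on IL-6 family receptors, 542 against 85, 6.92-fold lower (5.50 to 8.80). Ptpn11, the gene of the phosphatase SHP2, had 330 against 1854 reads and was 5.18-fold higher (4.60 to 5.84). In this list of 16 measured genes, 2 were lower and 1 higher, 13 passed in neither direction, and the median log2 ratio was -0.26. Over all measured genes 7.09% were called lower and 6.62% higher.

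Other targets of interferon gamma were mostly within 2-fold. Among 19 measured genes 3 were lower and 1 higher, where 7.09% of all measured genes were called lower and 6.62% higher. In neither direction passed 15, and the median log2 ratio was -0.35. The lower genes were Icam1, an adhesion ligand (219 against 21 reads, 11.3-fold, 7.22 to 18.6), Irf8, a transcription factor (376 against 54, 7.55-fold, 5.67 to 10.2), and Casp1, the inflammasome protease (271 against 134, 2.19-fold, 1.78 to 2.72). Gch1, which makes the cofactor tetrahydrobiopterin, was 2.85-fold higher (130 against 402 reads, 2.33 to 3.50). Xaf1 had 448 against 250 reads (log2 ratio -0.96). The 9 genes of antigen processing in this list (immunoproteasome, its activator, peptide transporter, tapasin and beta-2 microglobulin) had log2 ratios from -0.41 (Psmb9) to -0.02 (Tapbp), and 0 of 9 were called. Their grouping was made after the values were seen, and the difference from the GTPase genes cannot be tested with 1 library per group.

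The type I interferon response list, whose genes are also switched on through the ISRE, had 6 of 25 measured genes called lower and 0 higher, and its median log2 ratio was -0.70. Of these Ifit2 was 3.11-fold lower (436 against 152 reads), Usp18 2.53-fold (263 against 113), Ifit1 2.48-fold (418 against 183), Ifi27l2a 2.29-fold (3848 against 1820) and Oas3 2.21-fold (724 against 355). Partners that guide these GTPases to membranes or sense the damage had 2 of 20 called lower and 0 higher, and their median log2 ratio was -0.16. Of all measured genes 7.09% were called lower and 6.62% higher, so the count of 2 partners lies near that share. Lgals3, the gene of a galectin that marks broken vacuoles, had 71 against 16 reads, 4.81-fold lower (2.77 to 8.87). Pim1, a kinase known to act on GBP1 in human cells, had 96 against 52 reads and sat at the 2-fold threshold (interval 1.41 to 2.86-fold lower); it is not called under most other scalings. Arhgdib (20824 against 13496 reads), Atg5 (596 against 448) and Lgals8 (678 against 516) did not reach it.

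**Figure D5:**
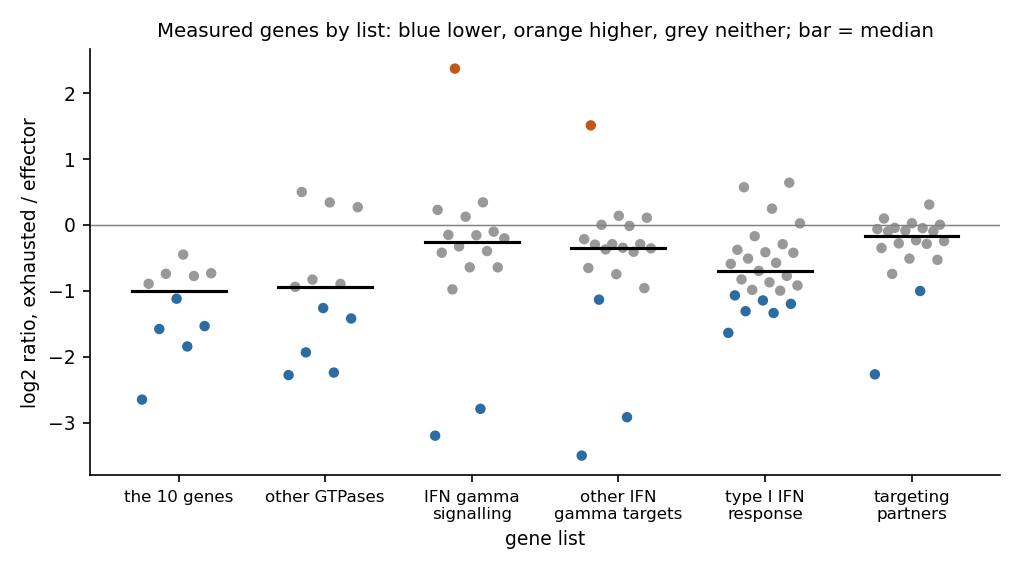
Log2 ratio of exhausted to effector for each measured gene, by list (blue called lower, orange called higher, grey neither; bar, median). Medians were -1.01 for the 10 genes, -0.94 for other IRG and large GTPases, -0.70 for type I interferon response genes and -0.16 for targeting partners.

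Both libraries carried the CD4 T cell markers, with Cd4 at 9272 and 15463 reads and Cd3e at 7624 and 11432. Of the 10 genes in that list 4 had a lower scaled count in the exhausted library, namely Trac, Trbc1, Trbc2 and Lck. Trac, a receptor constant segment, was called lower (22526 against 11561 reads, 2.11-fold), and the other 9 were not called. That count of 1 in 10 lies near the 7.09% of all measured genes called lower. Myeloid and B cells also express GBP and IRG genes, so markers of other spleen cells were counted. Of 30 such genes in 5 lists 6 had 0 reads in both libraries, among them Ms4a1, Ly6g, Siglech and Cd8a. Only 5 were measured, of which 3 were lower, 1 higher and 1 neither. Over all measured genes 7.09% were called lower and 6.62% higher. Ighm had 7540 against 3851 reads, 2.12-fold lower, and the other 29 genes together 545 against 452. That sum rests on the receptor gene Klrb1c (36 against 229 reads), without which the remaining 28 genes had 509 against 223. Macrophage and dendritic cell markers summed to 84 against 39 reads, with Lyz2 at 37 against 10 and Csf1r at 18 against 4, but Cd68 at 8 against 11, Flt3 at 8 against 10 and Itgax at 0 against 1. Neutrophil markers summed to 114 against 67 reads and were uneven, with S100a8 at 30 against 1, S100a9 at 32 against 2, Mpo at 39 against 49 and Elane at 13 against 15. Erythroid and platelet markers summed to 103 against 14 reads, and those of NK and CD8 T cells to 223 against 312. Their part in the lower GTPase counts was not tested.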

How the data were processed

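RNA from sorted TEa cells was purified with Trizol, and a low-input total RNA kit was used for the libraries, per the labels' protocols. The authors deposited 1 table of read counts per gene, not normalized, with symbol, position and gene length. Per the submitters' processing notes, STAR 2.6 and build mm10 were used. Which program counted reads, whether it used strand, how it treated shared reads and on which annotation are points not given in the sources used here. Columns were matched to samples by title, and no molecular identifiers are recorded, so PCR copies can make counting intervals too narrow.

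Counts were divided by effective library sizes (TMM in edgeR 4.0.16, R 4.3.3, fitted on the whole table). Intervals of ratios are exact Clopper-Pearson 95% intervals of the exhausted reads among both libraries' reads (scipy 1.17.1), and a count of 0 was set to a floor of 3 reads. The rule was checked on simulated counts that held counting error only, so the check does not cover variation between animals or PCR copies. Members and lists were chosen with earlier results of these data known. Of the list entries, 3 were matched by Ensembl ID and 1 (Gbp10) had no match.

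Named were all members, all measured genes of the families, core genes of interferon gamma signalling (1 is not reported here) and any other there past the threshold, and the 5 measured genes with the largest absolute log2 ratio in each further list. Antigen processing genes, Gbp11 and single markers were named after their values were seen. Alternatives were other scalings (total counts, upper quartile, protein-coding genes, and size factors of DESeq2 1.42.0). Further ones were another depth, read minimum, threshold, a prior count of 2 for member ratios, the treatment of overlapping genes and shares per kilobase.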

Additional observations from a re-analysis of the deposited data

How the results depend on the processing

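No paired analysis was possible because each group has 1 library, and no replicate could be left out for the same reason. Scaling ratios of exhausted to effector ranged from 1.06 to 1.08 and moved log2 ratios by at most 0.03. In 60 member ratios under other scalings, thinning of the deeper library or a prior count of 2, 0 rose above 0 and 0 calls were lost or gained. Members called lower numbered 9 at a threshold of 1.5-fold (13.6% of measured genes) and 1 at 4-fold (2.41%). With overlapping members summed (Gbp4 with Gbp8 and Gbp9, and Igtp with Irgm2), 4 of 7 units were lower. Over all measured genes, taken singly, 7.09% were called lower. All measured genes called lower numbered 1104 with a minimum of 1 read, 264 with 500 reads, 456 with the interval wholly beyond 2-fold, 1364 at 1.5-fold and 241 at 4-fold. Those called higher numbered 1034, 244, 405, 1360 and 220. With a minimum of 1 read, all of the 35275 genes but the 17536 at 0 in both libraries counted as measured. The number of genes measured with 500 reads is not given, so counts at that minimum have no share over all genes beside them. With a minimum of 500 reads, genes called lower numbered 4 among the members, since Gbp3 was no longer measured, 4 in the type I interferon response, 0 among other GBP genes, 3 among other IRG and large GTPases, 1 in interferon gamma signalling, 0 among other interferon gamma targets and 0 among targeting partners, since fewer genes were measured. A minimum of 1 read gave 2 lower among other GBP genes. Targeting partners had 1 lower with DESeq2 size factors, upper quartile, protein-coding scaling or thinning, as Pim1 lies at the threshold. Depth limits Gbp3 most among the 10 genes, with 47 reads in the exhausted library.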

Other observations

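Some marker genes of other lymphocytes did not follow the direction of the GTPase genes or of each other. Klrb1c, which encodes the NK1.1 receptor, had 36 reads in the effector and 229 in the exhausted library, 5.86-fold higher (4.11 to 8.58). Klrk1, the gene of the activating receptor NKG2D, had 18 against 2 reads and Ncr1, the gene of NKp46, 5 against 0, and neither was measured. Cd8b1 had 164 against 81 reads, 2.20-fold lower (1.67 to 2.90), in libraries where Cd8a had 0 reads in both. Ighm had 7540 against 3851 reads, while the B cell genes Cd79a and Cd79b had 8 against 18 and 12 against 2, and Ms4a1 had 0 reads. These genes were chosen after their values were seen, and no cause was tested.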
